A study of Homo sapiens with 16 samples.

Results

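Transforming growth factor beta (TGF-beta) signalling was followed through 10 genes in human A431 and HaCaT cells in which YAP1 had been silenced or a constitutively active YAP1 expressed. The genes are the ligands TGFB1, TGFB2 and TGFB3, the receptors TGFBR1 and TGFBR2, the signal transducers SMAD2 and SMAD3, the feedback inhibitors SMAD7 and SKIL, and the induced matrix gene TGFBI. They were taken by symbol from a table of 26229 genes, and all 10 were among the 14673 genes that passed a filter on low counts. The set was named by symbol but chosen from earlier fold changes and adjusted p-values of these same libraries, which may cover any of the comparisons below, so the levels, fold changes and adjusted p-values of its members are a description of where they stand in the fit over all genes, and a count of members called carries no weight as a test.

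TGF-beta ligands are secreted in a latent form and are released at the cell surface, where they bind the type II receptor TGFBR2, which recruits and phosphorylates the type I receptor TGFBR1. The activated receptor phosphorylates SMAD2 and SMAD3, which enter the nucleus with SMAD4 and turn target genes on or off. In keratinocytes the pathway is best known for restraining proliferation and for inducing matrix and wound-healing genes. YAP1 is a transcriptional co-activator that acts on DNA through the TEAD factors and is held back by the Hippo pathway.

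A431 is an epidermoid carcinoma line and HaCaT an immortalised keratinocyte line, and both were grown in DMEM with serum, a source of TGF-beta ligands that is not of the cells' own making. In each line 3 libraries came from cells given siRNA against YAP1 (siYAP) with 1 control siRNA library (siCTRL), and 3 from cells expressing YAP5SA, which the labels call a constitutively active YAP1 mutant, with 1 empty vector library. By the methods, siRNA was given again on the day after the first transfection. Every siRNA library, siCTRL included, has the same stated time after that second transfection. No such time is stated for the vector libraries, and the part of this difference in the results was not tested. The 16 libraries held between 18115624 and 46791673 estimated counts. All 4 controls are single libraries, so the spread of a control is not measured and is taken to be that of the treated triplicates.

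YAP1 itself checks the labels. In A431 cells YAP1 stood at 94.3 CPM (counts after all libraries are scaled to the same total) with siCTRL and at 5.34, 7.0 and 5.04 CPM with siYAP, and at 124 CPM with empty vector and 1500, 3250 and 2940 CPM with YAP5SA. In HaCaT cells it stood at 254 CPM in the siCTRL library and 23.2, 21.6 and 21.8 CPM in the siYAP libraries, and at 423 CPM with empty vector and 7550, 22300 and 10100 CPM with YAP5SA. The second HaCaT YAP5SA library therefore held far more YAP1 RNA than the other 2 of its group, and it also stood apart for TGFB1, described below. For SKIL the first library of that group stood apart instead, at 279 CPM against 170 and 182 CPM. The keratinocyte markers KRT5, KRT14, KRT6A, TP63 and CDH1 were present in both lines, but keratin levels differed between the siRNA and vector libraries. In HaCaT cells KRT6A was at 58.9 to 93.5 CPM in siRNA and 979 to 1650 CPM in vector libraries. KRT5 was at 355 to 549 and 919 to 2600 CPM there, and KRT14 at 134 to 446 and 763 to 1540 CPM. TP63 and CDH1 overlapped between the siRNA and vector libraries of each line. The part of these keratin differences in the results was not tested. The 5 fibroblast markers summed to at most 22.2 CPM in a library and the 3 melanocyte markers to at most 3.78 CPM. Among the fibroblast markers, DCN in HaCaT cells was at 11.3 to 14.2 CPM in siRNA libraries and at most 0.0765 CPM in vector libraries. LUM was at 6.16 to 12.7 CPM in the siRNA libraries of both lines and at most 3.58 CPM in their vector libraries. The part of this split in the results was not tested. Of the 3 leukocyte markers PTPRC and CD3E stayed near 0, while CD68, a lysosomal protein of macrophages, was at 82.1 to 170 CPM in A431 and 8.16 to 32.5 CPM in HaCaT libraries, and the part of any such cells was not tested. CDH5, an endothelial cadherin, lay between 12.1 and 51.8 CPM in the siRNA libraries and at or below 2.43 CPM in the vector libraries of the 2 lines, and its part in the results was not tested. Of the other endothelial markers PECAM1 was at most 1.68 CPM. VWF was at 3.64 to 7.1 CPM in siRNA and 0.66 to 1.97 CPM in vector libraries of HaCaT cells. In A431 cells VWF overlapped, at 0.988 to 2.2 and 1.76 to 2.34 CPM.

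Promoter sequences are shown only for windows that held the core letters recognised by TEAD factors, which were windows of TGFB2 and TGFBR1. RefSeq promoter windows of 300 bases, 250 before to 50 after each start, were matched to all 10 members on GRCh38.p14 and gave 26 windows. The letters GGAATG, the core recognised by TEAD factors, were searched on both strands and occurred in 2 of the 26 windows. These were the single window of TGFB2 on chromosome 1, at position -185 from the start on the minus strand, and the fifth of the 8 windows of TGFBR1 on chromosome 9, at position -132 on the plus strand. Among all 35116 windows, 14.0% held the letters. The 2 windows lie at chr1:218345086-218345385 and chr9:99104442-99104741, both on the plus strand, and the capitals mark GGAATG or its reverse complement.
TGFB2: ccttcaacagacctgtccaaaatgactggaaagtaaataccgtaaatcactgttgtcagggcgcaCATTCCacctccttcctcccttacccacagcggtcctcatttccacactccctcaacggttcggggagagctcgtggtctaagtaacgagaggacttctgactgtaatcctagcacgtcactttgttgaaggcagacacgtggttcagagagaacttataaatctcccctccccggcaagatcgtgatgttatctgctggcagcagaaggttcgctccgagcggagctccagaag
TGFBR1: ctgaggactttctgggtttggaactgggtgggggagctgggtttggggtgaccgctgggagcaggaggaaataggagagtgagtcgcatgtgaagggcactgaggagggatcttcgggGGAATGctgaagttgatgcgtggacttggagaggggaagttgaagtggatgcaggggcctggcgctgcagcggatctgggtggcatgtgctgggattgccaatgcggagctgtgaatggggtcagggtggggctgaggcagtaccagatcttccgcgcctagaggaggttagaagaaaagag
The short SMAD letters CAGAC occurred in 12 windows of 6 members, with 2 occurrences in the TGFB2 window and none in the printed TGFBR1 window, against 45.3% of all windows. The AP-1 letters TGANTCA occurred in 1 window each of TGFBR2 and SMAD3, against 7.71% of all windows. A match of letters is a description of the window and not a bound site, and these coordinates belong to a newer build than the hg19 used for the counts.

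**Figure D1:**
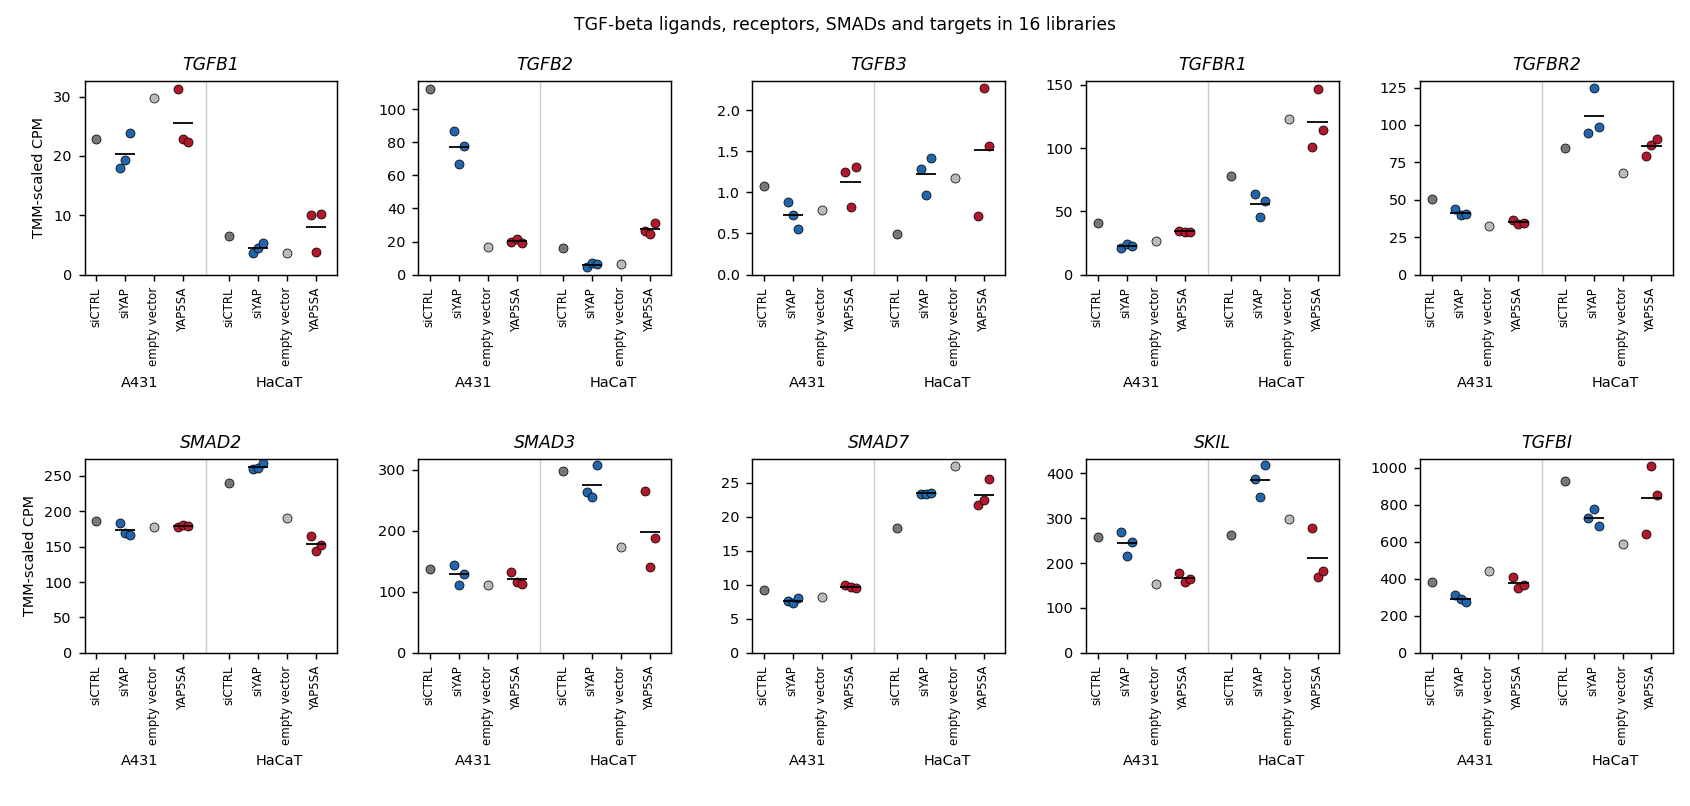
Levels of the 10 genes in TMM-scaled CPM (vertical axis, from 0, scaled separately for each gene) by cell line and condition; each point is 1 library and each horizontal line the mean of a triplicate. TGFB2 ran from 67.2 to 112 CPM in the siRNA libraries of A431 cells but from 16.9 to 21.3 CPM in the vector libraries of the same line.

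Among the ligands, TGFB2 varied most. This isoform is expressed by many epithelial cells. In A431 cells it was at 112 CPM with siCTRL against 87.0, 67.2 and 77.8 CPM with siYAP, and at 16.9 CPM with empty vector and 19.6, 21.3 and 19.4 CPM with YAP5SA. In HaCaT cells it was at 15.8 CPM with siCTRL against 4.80, 7.19 and 6.18 CPM with siYAP, and at 6.56 CPM with empty vector and 26.2, 24.6 and 31.5 CPM with YAP5SA. In both lines each siYAP library lay below the siCTRL library and each YAP5SA library above the empty vector library.

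TGFB2 fell with siYAP in HaCaT cells, with a log2 fold change of -1.39 (SE 0.21, n = 3 against 1, edgeR adjusted p = 0.00239), which is 2.61-fold lower. It rose with YAP5SA in HaCaT cells by 2.06 on the log2 scale (SE 0.24, adjusted p = 0.00102), or 4.18-fold. In A431 cells the log2 fold change was -0.54 (SE 0.20, adjusted p = 0.133) with siYAP and 0.25 (SE 0.22, adjusted p = 0.855) with YAP5SA. Both A431 values miss the threshold of 0.05. Set against both control libraries of the line together, the HaCaT values became -0.87 (adjusted p = 0.248) with siYAP and 1.31 (adjusted p = 0.128) with YAP5SA, and neither was then called. In A431 cells the values under that setting turned to 0.26 (adjusted p = 0.87) with siYAP and -1.69 (adjusted p = 0.907) with YAP5SA.

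TGFB1 and TGFB3 varied less than TGFB2. TGFB1, the isoform most studied in skin, was at 22.8 CPM with siCTRL against 17.9, 19.3 and 23.8 CPM with siYAP in A431 cells, and at 29.8 CPM with empty vector and 31.3, 22.9 and 22.4 CPM with YAP5SA. In HaCaT cells it was at 6.56 CPM with siCTRL against 3.56, 4.42 and 5.39 CPM with siYAP, and at 3.69 CPM with empty vector and 10.0, 3.82 and 10.2 CPM with YAP5SA. The second HaCaT YAP5SA library, the one with the most YAP1 RNA, was the only one of its triplicate to stay near the empty vector level. The log2 fold change of TGFB1 there was 1.12 (SE 0.47, adjusted p = 0.121), and without that library it was 1.45 (SE 0.30, adjusted p = 0.0108). TGFB3 lay between 0.492 and 2.27 CPM in the 16 libraries, or 9 to 79 estimated counts, below the mean level required for a call.

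TGFBR1, the type I receptor, differed with siYAP in the A431 line. In A431 cells it was at 40.9 CPM with siCTRL against 21.4, 24.0 and 22.2 CPM with siYAP, and at 26.9 CPM with empty vector and 34.6, 33.9 and 34.0 CPM with YAP5SA. In HaCaT cells it was at 78.1 CPM with siCTRL against 63.9, 45.7 and 58.4 CPM with siYAP, and at 123 CPM with empty vector and 101, 147 and 114 CPM with YAP5SA. The siYAP libraries lay below their control in both lines, whereas the HaCaT YAP5SA libraries lay on either side of the empty vector. TGFBR1 fell with siYAP in A431 cells, with a log2 fold change of -0.86 (SE 0.20, adjusted p = 0.0248), and was at -0.48 (SE 0.20, adjusted p = 0.192) in HaCaT cells. Without A431 siYAP replicate 1 or 3 the A431 value was -0.84 (adjusted p = 0.0687) or -0.85 (adjusted p = 0.0733). Against both control libraries of the line TGFBR1 was at -0.59 (adjusted p = 0.226) in A431 cells and at -0.84 (adjusted p = 0.0186), a call, in HaCaT cells. With YAP5SA the log2 fold change was 0.35 (SE 0.21, adjusted p = 0.816) in A431 cells and -0.03 (SE 0.20, adjusted p = 0.934) in HaCaT cells.

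TGFBR2, the ligand-binding receptor, was at 50.8 CPM with siCTRL against 43.9, 39.9 and 40.5 CPM with siYAP in A431 cells, and at 84.6 CPM with siCTRL against 94.8, 125 and 98.8 CPM with siYAP in HaCaT cells. The siYAP libraries thus lay below the control in one line and above it in the other. The log2 fold changes were -0.29 (SE 0.16, adjusted p = 0.292) and 0.33 (SE 0.16, adjusted p = 0.266), and their difference of 0.62 (SE 0.22, adjusted p = 0.303) was not called. With empty vector TGFBR2 was at 32.3 CPM and with YAP5SA at 34.1 to 36.6 CPM in A431 cells, and at 68.1 CPM against 79.4 to 90.7 CPM in HaCaT cells, with log2 fold changes of 0.12 (95% interval -0.23 to 0.47) and 0.33 (95% interval -0.01 to 0.67), neither of them called.

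SMAD2 and SMAD3 carry the signal to the nucleus. SMAD2 was the steadier of the pair in A431 cells, at 166 to 186 CPM in all 8 libraries. In HaCaT cells it was at 240 CPM with siCTRL against 260, 262 and 268 CPM with siYAP, and at 191 CPM with empty vector and 165, 144 and 152 CPM with YAP5SA. The HaCaT YAP5SA libraries all lay below their control, with a log2 fold change of -0.31 (SE 0.11, adjusted p = 0.0822), and of -0.48 (adjusted p = 0.0227), a call, against both controls. SMAD3 lay between 111 and 144 CPM in A431 cells, and in HaCaT cells at 298 CPM with siCTRL, 256 to 308 CPM with siYAP, 174 CPM with empty vector and 266, 141 and 188 CPM with YAP5SA. The HaCaT YAP5SA libraries lay on either side of the empty vector for SMAD3, and the log2 fold change of 0.19 had a 95% interval of -0.38 to 0.76 and turned to -0.25 (adjusted p = 0.535) against both controls.

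SMAD7 competes with SMAD2 and SMAD3 at the receptor, and SKIL (SnoN) represses SMAD target genes. SMAD7 varied least of the 10 members, with an SD over libraries of 0.153 on the log2 scale after centring each line, against 1.036 for TGFB2. It lay between 7.34 and 10.0 CPM in A431 cells and between 18.3 and 27.5 CPM in HaCaT cells. SKIL was at 263 CPM with siCTRL against 388, 348 and 419 CPM with siYAP in HaCaT cells, a log2 fold change of 0.55 (SE 0.24, adjusted p = 0.21), and at 298 CPM with empty vector and 279, 170 and 182 CPM with YAP5SA, a log2 fold change of -0.50 (SE 0.22, adjusted p = 0.141). In HaCaT cells SKIL therefore lay above the control in each siYAP library and below it in each YAP5SA library, and neither value was called. In A431 cells its log2 fold changes were -0.08 (SE 0.23) with siYAP and 0.12 (SE 0.23) with YAP5SA.

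TGFBI encodes a secreted matrix protein that TGF-beta induces. It was at 384 CPM with siCTRL against 312, 288 and 276 CPM with siYAP in A431 cells, and at 927 CPM with siCTRL against 725, 778 and 685 CPM with siYAP in HaCaT cells. Every siYAP library lay below its control, and the log2 fold change over both lines was -0.37 (SE 0.14, adjusted p = 0.0932). With YAP5SA it was at 441 CPM with empty vector against 407, 352 and 364 CPM in A431 cells, and at 590 CPM against 642, 1010 and 851 CPM in HaCaT cells. The 2 lines lay on opposite sides of their controls, with log2 fold changes of -0.24 (SE 0.20) and 0.50 (SE 0.20), and the difference of 0.74 (SE 0.28, adjusted p = 0.152) was not called. Against both control libraries of the line, TGFBI in HaCaT cells was at -0.06 (adjusted p = 0.865) with siYAP and 0.14 (adjusted p = 0.679) with YAP5SA. Without the first HaCaT YAP5SA library, TGFBI (0.66, adjusted p = 0.0121), SKIL (-0.76, adjusted p = 0.00585) and SMAD2 (-0.37, adjusted p = 0.035) were called in that line.

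Per kilobase of transcript, TGFBI was the highest and TGFB3 the lowest of the members in all 8 groups. With empty vector, for example, TGFBI stood at 157 CPM per kilobase in A431 cells and 210 in HaCaT cells, and TGFB3 at 0.31 and 0.468. TGFBI was followed by SKIL and SMAD3, which came next in every group except A431 siCTRL, where TGFB2 at 22.2 CPM per kilobase stood just above SMAD3 at 21.9. The receptors TGFBR1 and TGFBR2 stood at 4.53 and 7.01 CPM per kilobase in A431 empty vector cells and at 20.7 and 14.8 in HaCaT empty vector cells. Lengths are of 1 GENCODE transcript a gene, and that of SMAD2 runs to 34526 bases, so its place in this order is uncertain.

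**Figure D2:**
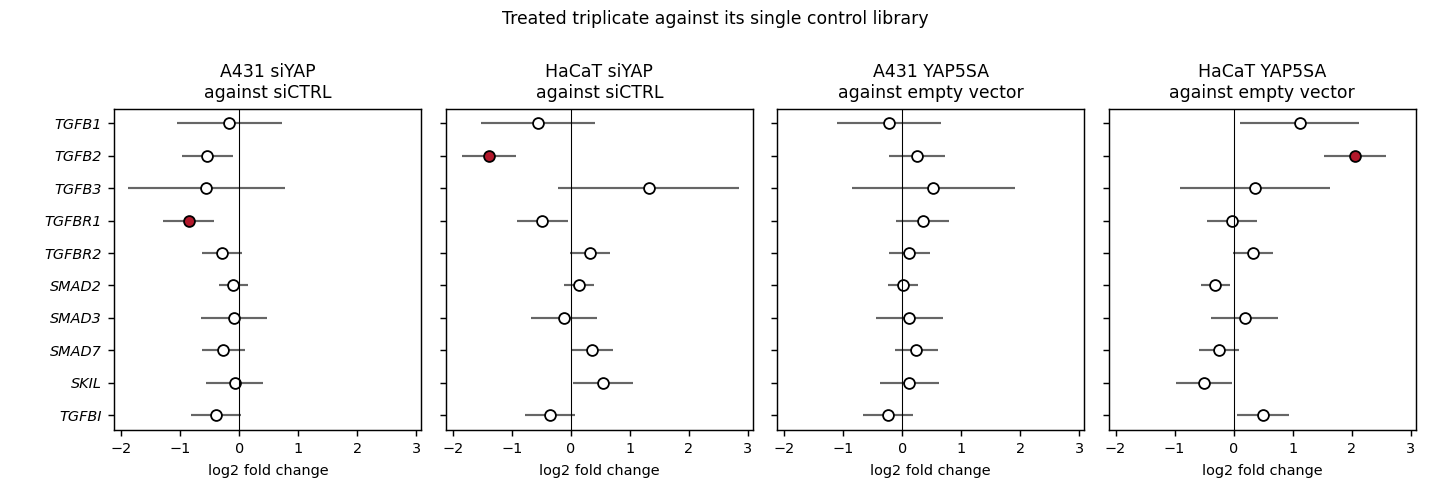
Log2 fold change of each gene in the 4 treated triplicates against their single control library (horizontal axis); bars are 95% intervals, filled points were called at an adjusted p under 0.05 and open points were not. TGFB2 in HaCaT cells moved to -1.39 with siYAP and to 2.06 with YAP5SA, while no gene of the set was called in A431 cells with YAP5SA.

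A gene was called where the adjusted p over all 14673 genes was under 0.05 and its mean level was above a log2 CPM of 1, which 9 of the 10 members passed. With siYAP in A431 cells 1 member was called lower (TGFBR1) and none higher, where 3.78% of all tested genes were called lower and 1.81% higher. With siYAP in HaCaT cells 1 was called lower (TGFB2) and none higher, against 3.30% and 2.37%. With YAP5SA in A431 cells no member was called in either direction, but no gene at all was called there (0% lower and 0% higher). Even YAP1, 20.6-fold higher there, was not called (edgeR adjusted p = 0.197), so a missing call there says little about a member. Of all 14673 tested genes 828 had an unadjusted p under 0.05. None of the 10 members was among those 828, and DESeq2 called 3 genes in all and no member. With YAP5SA in HaCaT cells 1 was called higher (TGFB2) and none lower, against 6.99% higher and 6.64% lower.

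Over both lines together TGFB2 (log2 fold change -0.96, SE 0.15, adjusted p = 0.00122) and TGFBR1 (-0.67, SE 0.14, adjusted p = 0.00811) were called lower with siYAP. No member was called higher, and 7.68% of all genes were called lower and 5.30% higher. TGFB2 was the only member called with YAP5SA over both lines, at 1.16 (SE 0.16, adjusted p = 0.00636), where 1.38% of all genes were called higher and 0.661% lower. With replicates of the same number blocked, 611 genes in place of 300 were called there, and TGFB2 (1.16, adjusted p = 0.0101) was still the only member. With both controls of a line used together, TGFB2 was at -0.31 (adjusted p = 0.574) with siYAP and turned to -0.19 (adjusted p = 0.767) with YAP5SA. TGFBR1 kept its call over both lines with siYAP in each of the 16 alternative fits or call rules when judged by adjusted p alone, with log2 fold changes from -0.72 to -0.61.

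Whether the 2 lines answered differently was tested as the difference of their effects. No member was called in either direction for siYAP, where 0.0477% of genes were called lower in HaCaT cells and 0.123% higher, or for YAP5SA, where the shares were 0.0204% and 0.0682%. At an unadjusted p under 0.05 there were 3 members for siYAP and 3 for YAP5SA, where 11.5% and 22.4% of all genes passed. DESeq2 called 0 and 1 members, where it called 1.91% and 6.32% of all genes. With replicates of the same number blocked, 21 genes in place of 13 were called for YAP5SA and still no member (TGFB2 1.81, adjusted p = 0.0588). The nearest to a call was TGFB2 with YAP5SA, whose effect was 1.82 larger in HaCaT cells on the log2 scale (SE 0.31, 95% interval 1.14 to 2.49, adjusted p = 0.0523). That adjusted p lay between 4.94e-05 and 0.139 over 16 alternatives, 9 of which put it under 0.05, among them DESeq2. For siYAP the difference for TGFB2 was -0.85 (SE 0.30, adjusted p = 0.304).

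The siCTRL and empty vector libraries of a line also differed from each other for TGFB2. In A431 cells TGFB2 was 6.65-fold higher in the siCTRL than in the empty vector library, and in HaCaT cells it was 2.41-fold higher. With 0.5 CPM added to each level, TGFB2 was the only member past 2-fold between the 2 controls in either line, where 5.85% of tested genes were past 2-fold in A431 cells and 32.1% in HaCaT cells. With 1 library each there is no test, and the siRNA and vector procedures cannot be told apart from other differences between these libraries.

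The YAP5SA and siYAP triplicates were compared directly, which uses no single control library but carries that difference between procedures. In A431 cells TGFB2 and SKIL were called lower with YAP5SA than with siYAP and TGFBR1 and SMAD7 higher, so 2 members in each direction, against 14.6% of all genes lower and 20.0% higher. TGFB2 stood at 19.4 to 21.3 CPM against 67.2 to 87.0 CPM, a log2 fold change of -1.95 (SE 0.15, adjusted p = 2.94e-06). Once each triplicate had been set against its own control, the same difference was 0.79 (SE 0.30, adjusted p = 0.164), so its direction turned. SKIL likewise went from -0.55 (SE 0.16, adjusted p = 0.0172) to 0.20 (SE 0.32, adjusted p = 0.77). TGFBR1 went from 0.60 (SE 0.15, adjusted p = 0.00616) to 1.21 (SE 0.29, adjusted p = 0.0553), and SMAD7 from 0.34 (SE 0.12, adjusted p = 0.0373) to 0.51 (SE 0.24, adjusted p = 0.246). The direct call of SMAD7 was lost without any one of the 6 libraries (adjusted p from 0.0586 to 0.11), and that of SKIL without 4 of them in turn (adjusted p from 0.0512 to 0.0666).

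In HaCaT cells 3 members were called higher with YAP5SA than with siYAP (TGFB1, TGFB2 and TGFBR1) and 4 lower (TGFBR2, SMAD2, SMAD3 and SKIL), where 31.5% of all genes were called higher and 28.5% lower. TGFB2 was at 2.18 (SE 0.16, adjusted p = 9.08e-08) on the log2 scale directly and at 3.45 (SE 0.32, adjusted p = 0.000243) with each triplicate against its own control. It was the only member still called that way. TGFBR1 went from 1.10 to 0.45 (adjusted p = 0.336), SMAD2 from -0.78 to -0.45 (adjusted p = 0.102) and TGFB1 from 0.84 to 1.67 (adjusted p = 0.116). SKIL went from -0.87 to -1.05 (adjusted p = 0.0594). TGFBR2 went from -0.31 to 0.00 and SMAD3 from -0.48 to 0.30, so neither kept its direction. The direct call of TGFB1 was lost without siYAP replicate 1 or 2 or YAP5SA replicate 1 or 3 (adjusted p from 0.0655 to 0.115). That of SMAD3 was lost without siYAP replicate 1 or 3 or YAP5SA replicate 2 or 3 (adjusted p from 0.0522 to 0.13). TGFBR2 lost its direct call without siYAP replicate 2 (adjusted p = 0.125) or YAP5SA replicate 1 (adjusted p = 0.0698).

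**Figure D3:**
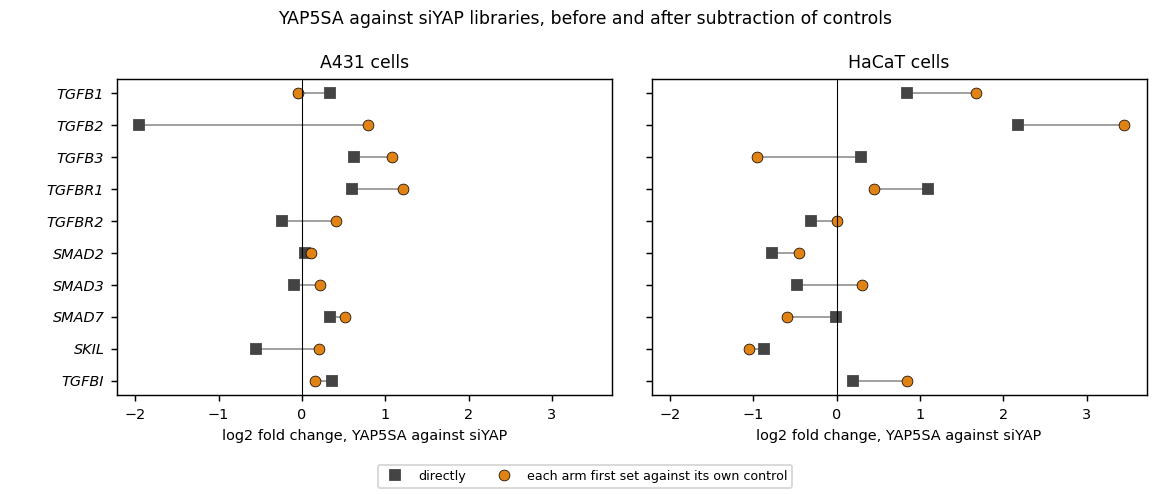
Log2 fold change of YAP5SA against siYAP libraries (horizontal axis) for each gene in A431 and HaCaT cells; squares compare the triplicates directly and circles compare them after each was set against its own control library, with a line joining the pair. TGFB2 in A431 cells went from -1.95 to 0.79, whereas in HaCaT cells it was at 2.18 and 3.45.

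The 2 lines themselves differed in most members. With siYAP, 7 members were called higher in HaCaT than in A431 cells and 2 lower, where 26.9% of all genes were called higher and 31.7% lower. With YAP5SA, 6 were called higher and 2 lower, against 23.5% and 26.7%. TGFB1 was lower in HaCaT cells in all 4 conditions, at log2 fold changes of -2.18 (SE 0.32, adjusted p = 4.01e-05) with siYAP and -1.67 (SE 0.30, adjusted p = 0.000376) with YAP5SA, and 3.47-fold and 8.05-fold lower with siCTRL and empty vector. TGFBR1 was higher in HaCaT cells by 1.32 (SE 0.15) with siYAP and 1.82 (SE 0.15) with YAP5SA, and TGFBR2 by 1.36 (SE 0.11) and 1.29 (SE 0.11). SMAD3, SMAD7 and TGFBI were also higher in HaCaT cells in every condition, by 0.42 to 1.74 on the log2 scale.

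The line difference of TGFB2 and SMAD2 turned with the condition. TGFB2 was 12.8-fold lower in HaCaT than in A431 cells with siYAP (log2 fold change -3.68, SE 0.17, adjusted p = 1.15e-09) and 1.37-fold higher with YAP5SA (0.45, SE 0.15, adjusted p = 0.0195). The second value was not called without replicate 3 of A431 YAP5SA (0.42, adjusted p = 0.0635) or replicate 3 of HaCaT YAP5SA (0.34, adjusted p = 0.089). SMAD2 was higher in HaCaT cells with siYAP (0.60, SE 0.08, adjusted p = 2.38e-05) and lower with YAP5SA (-0.22, SE 0.08, adjusted p = 0.0354). The call for SMAD2 with YAP5SA was lost with RLE factors, without a count filter, with over 10 counts in every library, with DESeq2 and without replicate 2 or 3 of either line, at adjusted p-values from 0.0573 to 0.112. TGFB3 was lower in HaCaT cells only with siCTRL, at 9 estimated counts.

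**Figure D4:**
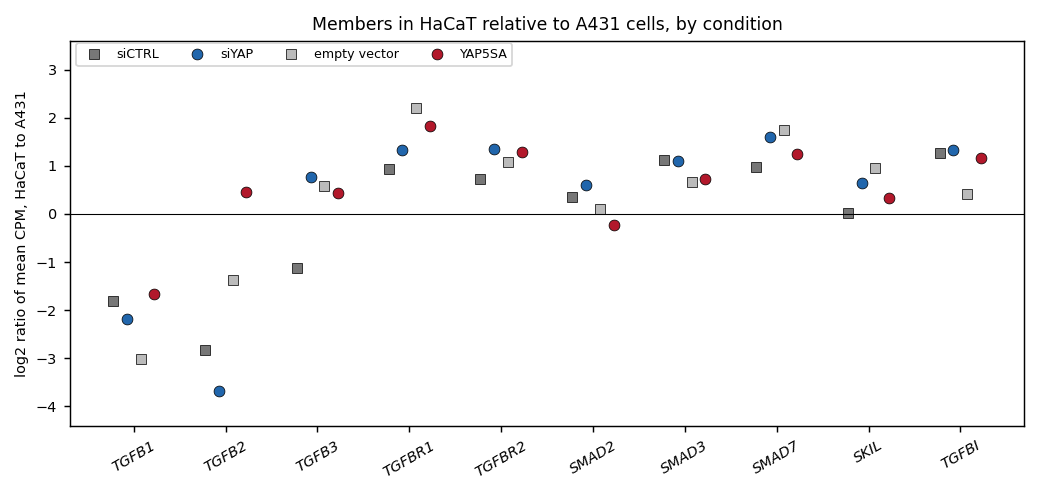
Log2 ratio of mean CPM in HaCaT to A431 cells (vertical axis) for each gene under the 4 conditions; circles rest on triplicates and squares on single control libraries. TGFB1 lay below 0 in all 4 conditions and TGFBR1, TGFBR2, SMAD3, SMAD7 and TGFBI above 0, whereas TGFB2 ran from -3.67 with siYAP to 0.45 with YAP5SA.

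A further 61 genes of the pathway, listed by role, were described beside the 10, and 57 of them passed the count filter. They are latency and activation genes, co-receptors and receptor partners, SMAD4 and its regulators, induced targets, repressed targets and the activin branch, a sister pathway that also signals through SMAD2 and SMAD3. With siYAP in A431 cells 3 of the 57 were called lower and none higher, beside 3.78% and 1.81% of all genes. These were ITGAV, the integrin alpha chain that binds latent TGF-beta, from 519 to 326 CPM (log2 fold change -0.67, SE 0.17, adjusted p = 0.0426), TRIM33 (-0.47, SE 0.11, adjusted p = 0.021), a ubiquitin ligase that acts on SMAD4, and the activin receptor ACVR2A (-0.56, SE 0.15, adjusted p = 0.0466). All 3 calls were lost against both controls, where ITGAV was at -0.30 (adjusted p = 0.563), and each was lost without at least 2 of the 3 siYAP libraries in turn, ITGAV without any of them (adjusted p from 0.0592 to 0.117). With siYAP in HaCaT cells 2 were called higher and 2 lower, beside 2.37% and 3.30% of all genes. ITGB8, the integrin beta chain that activates latent TGF-beta with ITGAV, rose from 105 to 445, 498 and 462 CPM (2.15, SE 0.24, adjusted p = 0.000425). PTHLH, a secreted hormone-like factor induced by TGF-beta, rose from 3.82 to a mean of 13.3 CPM (1.79, SE 0.44, adjusted p = 0.0305), and it turned to -1.11 against both controls together. SNAI2, a transcription factor of the epithelial to mesenchymal transition, fell (-0.86, SE 0.19, adjusted p = 0.0166), as did the SMAD co-repressor TGIF2 (-0.71, SE 0.19, adjusted p = 0.048), whose call was lost without any one siYAP library (adjusted p from 0.0657 to 0.123). PTHLH lost its call without replicate 2 or 3 (adjusted p = 0.063 and 0.069). With HaCaT cells fitted alone PTHLH, SNAI2 and TGIF2 were not called (adjusted p from 0.0529 to 0.103).

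With YAP5SA in A431 cells none of the 57 was called and 4 had an unadjusted p under 0.05. Over all 14673 genes none was called there and 828 had such a p. With YAP5SA in HaCaT cells 11 were called higher and 4 lower, or 15 of 57 beside the 6.99% and 6.64% of all genes. Over the 9 latency and activation genes tested the median log2 fold change was 1.21 against 0.01 over all genes, with 6 values positive and 3 negative. Of the 9 genes 4 were called higher and none lower. They were THBS1, a matrix protein that can activate latent TGF-beta, which rose from 701 to 2450, 3960 and 3300 CPM (2.21, SE 0.32, adjusted p = 0.00312), the latent TGF-beta binding proteins LTBP3 (1.37, adjusted p = 0.0227) and LTBP2 (1.33, adjusted p = 0.0241), and FURIN, which cleaves the TGF-beta precursor. LTBP3 turned to -0.31 against both controls together, where siCTRL held 22.2 CPM and empty vector 4.08 CPM, and LTBP2 went to 0.13 (adjusted p = 0.876). Both lost their calls with HaCaT cells fitted alone (adjusted p = 0.0587 and 0.0626), and LTBP3 without replicate 3 (adjusted p = 0.0505). The integrin genes of the list did not rise in this way. With empty vector and as the mean with YAP5SA, ITGAV was at 318 and 231 CPM, ITGB6 at 120 and 77.7 CPM and ITGB8 at 262 and 264 CPM. LTBP1 was at 1.53 and 0.829 CPM.

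Of the 18 induced targets 5 were called higher and 1 lower in HaCaT cells with YAP5SA, with a median of 0.72. Their values were positive for 14 and negative for 4. CDKN2B, one of those that went down, was at 42 CPM with empty vector and at 24.5, 17.5 and 15.7 CPM with YAP5SA. CTGF, a matricellular gene that YAP1 is also known to induce, rose from 1.66 to 9.38, 14.9 and 15.1 CPM (2.98, SE 0.80, adjusted p = 0.0283), and fibronectin, FN1, from 16.3 to 47.3, 164 and 97.2 CPM (2.65, SE 0.60, adjusted p = 0.0146). The growth factor gene PDGFB rose as well (1.27, SE 0.35, adjusted p = 0.0302). Of the 4 repressed targets ID2, an inhibitor of DNA binding, fell from 121 to 46.4, 45.7 and 50.7 CPM (-1.34, SE 0.18, adjusted p = 0.00178). In that list 3 values were negative and 1 positive. The positive one was MYC, not called, at 117 CPM with empty vector and 168, 157 and 181 CPM with YAP5SA. Among the regulators NEDD4L rose (1.27, SE 0.34, adjusted p = 0.0282) and WWP1 fell (-0.66, SE 0.16, adjusted p = 0.0181), both of them ubiquitin ligases. In the activin branch ACVR2A fell (-0.98, SE 0.14, adjusted p = 0.00325) and the ligand GDF11 rose (0.98, SE 0.27, adjusted p = 0.0307). Against both controls ID2 was at -0.73 (adjusted p = 0.277), NEDD4L at 0.71 (adjusted p = 0.187) and GDF11 at 0.77 (adjusted p = 0.0548). With HaCaT cells fitted alone NEDD4L, WWP1, PDGFB and GDF11 were not called (adjusted p from 0.0576 to 0.0858), nor were CTGF, PDGFB and GDF11 without replicate 3 (adjusted p from 0.0558 to 0.0674). The medians over all 57 genes were 0.14 and 0.17 with siYAP and 0.02 and 0.29 with YAP5SA in A431 and HaCaT cells.

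**Figure D5:**
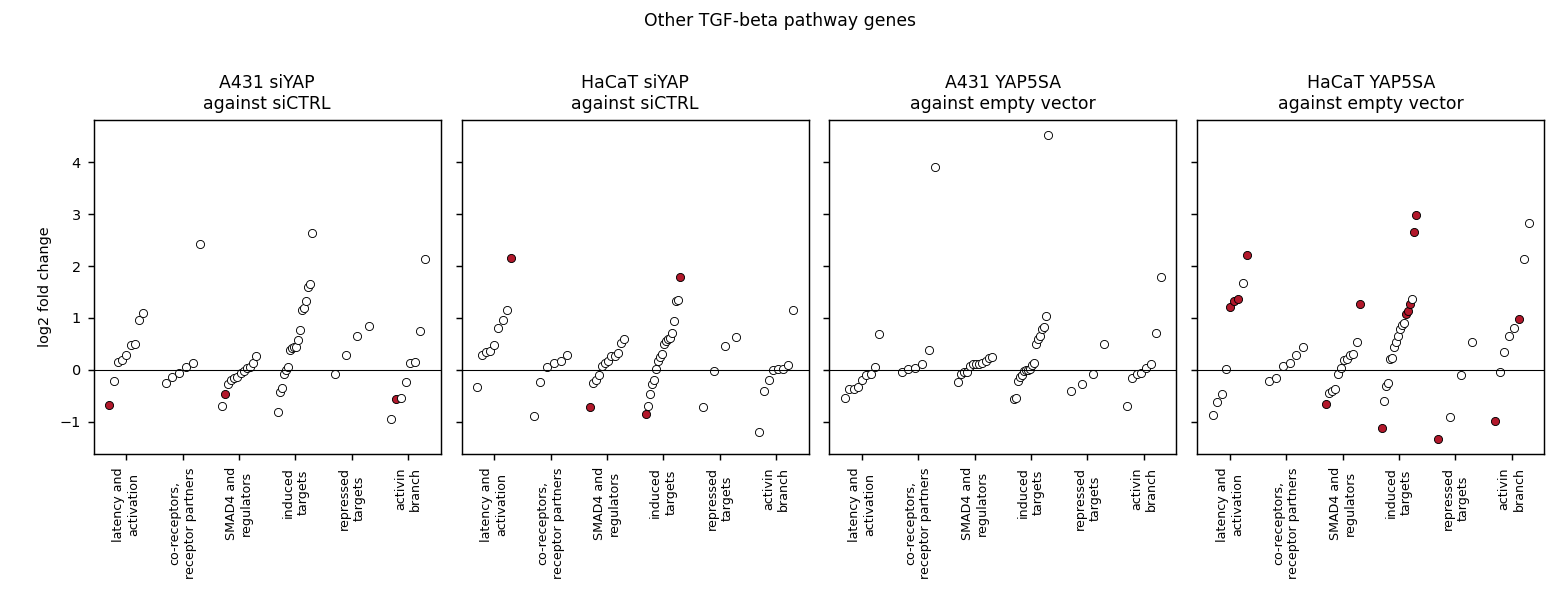
Log2 fold change (vertical axis) of the 57 other pathway genes tested, by list and ordered by value within each list, in the 4 treated triplicates against their control library; filled points were called and open points were not. No point is filled in A431 cells with YAP5SA and 15 are filled in HaCaT cells with YAP5SA.

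Over both lines 5 of the 57 were called higher with siYAP and 4 lower, beside 5.30% and 7.68% of all genes. ITGB8 (1.17, SE 0.16, adjusted p = 0.000604), PTHLH (1.49, adjusted p = 0.0168), the gelatinase MMP2 (0.67, adjusted p = 0.0236), ID2 (0.64, adjusted p = 0.0203) and the activin subunit INHBA (1.64, adjusted p = 0.0327) rose. IGFBP3 (-0.76, adjusted p = 0.0185), TRIM33 (-0.34, adjusted p = 0.0115) and ACVR2A (-0.38, adjusted p = 0.0334) fell, with SNAI2. PTHLH and ID2 turned to -0.25 and -0.52 when both controls of a line were used together, and INHBA (0.46, adjusted p = 0.553), IGFBP3 (-0.52, adjusted p = 0.0645) and ACVR2A (-0.21, adjusted p = 0.202) lost their calls. INHBA and ACVR2A also lost them without 1 of several single libraries, at adjusted p-values from 0.0505 to 0.0669. With YAP5SA over both lines THBS1 rose (1.44, adjusted p = 0.00826), and ID2 (-0.88, adjusted p = 0.0101) and ACVR2A (-0.53, adjusted p = 0.0311) fell, 1 higher and 2 lower of the 57 beside 1.38% and 0.661% of all genes. Against both controls THBS1 was at 0.92 (adjusted p = 0.0874) and ID2 at -0.25 (adjusted p = 0.628), and ACVR2A was not called without A431 replicate 2 or 3 (adjusted p = 0.0564 and 0.0768). ITGB8 was the only one of the 57 whose siYAP effect was called different between the lines, and none was for YAP5SA.

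In the comparisons without a single control the lists held more calls, as did the whole table. Between YAP5SA and siYAP, 4 of the 57 were called higher and 22 lower in A431 cells, and 24 higher and 20 lower in HaCaT cells, beside 20.0% and 14.6% of all genes in A431 cells and 31.5% and 28.5% in HaCaT cells. Of the 18 induced targets 12 were called higher and 3 lower in HaCaT cells, and 1 higher and 5 lower in A431 cells. Between HaCaT and A431 cells 24 were called higher and 16 lower with siYAP, and 28 higher and 10 lower with YAP5SA, beside 26.9% and 31.7%, and 23.5% and 26.7%, of all genes.

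TGFB2 shares part of its sequence with TGFB2-OT1, a transcript that overlaps it, and the estimated counts of both are not whole numbers because ambiguous reads were divided between them. TGFB2-OT1 was at 14.9 CPM with siCTRL against 7.82, 8.03 and 8.04 CPM with siYAP in A431 cells, and at 2.88 CPM or below in the A431 vector libraries and in all HaCaT libraries. With the pair summed TGFB2 kept its calls, and the difference of its YAP5SA effect between the lines had a log2 value of 1.78 (adjusted p = 0.0271). SMAD2 and SKIL also had estimated counts that were not whole.

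The 3' untranslated regions were searched for the words TTCTTAA and CTTCTTA, which an earlier look at these data had found in many genes lowered by siYAP. In GENCODE version 29 transcripts on GRCh38 they occurred in 3 of the 10 members, TGFBR1, SMAD3 and SMAD2, and in none of the ligands. Of the 12090 tested genes with such a region of at least 50 bases 26.6% held one. Among the 1043 such genes called lower for siYAP in the fit over the pair of lines 52.9% did. Because the words came from such genes of these same data, the second share follows from that choice and carries no weight as a test. TGFBR1, lower with siYAP in the fit over both lines, holds 1 site, and so does SMAD3, which was not called. TGFB2, also called lower, holds none, and SMAD2 holds 10 in an annotated region of 32870 bases. The sites of TGFBR1 and SMAD3 lie on the plus strand at chr9:99150812-99150838 and chr15:67194553-67194579, with the word in capitals.
TGFBR1: ttgtcatggtCTTCTTAcattaagttg
SMAD3: atgtaataatTTCTTAAaaccattcag
The shares are not adjusted for length, and the part of these words in the siYAP results was not tested.

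Across the 16 libraries, the genes whose pattern was most like that of TGFB2 were IFFO2 (Pearson r = 0.946), GRAMD3 (0.922) and RAP1GAP2 (0.912), on log2 levels centred on each line. Those most like TGFBR1 were FAM91A1 (0.961), SLC35B4 (0.961) and PM20D2 (0.958). TGFB1, next in spread after TGFB2 and TGFBR1 with an SD of 0.405, was most like TFPT (0.851), CADM1 (0.828) and GALNS (0.818). The libraries share their line, procedure and depth, so these values are a description with no p.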

How the data were processed

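RNA sequencing of A431 and HaCaT cells was analysed from 16 libraries in 8 groups. The authors trimmed reads, aligned them with bowtie2 and quantified them with RSEM, whose version is 1.2.11 in the submitters' processing notes (build hg19) and differs in the methods, and deposited 1 table of estimated counts per gene, which were rounded to whole numbers here. Genes with a mean above 10 counts a library were kept. In R 4.3.3, edgeR 4.0.16 fitted 1 quasi-likelihood model of 8 groups with TMM factors (8 residual degrees of freedom, biological coefficient of variation 0.174), and p-values were adjusted by Benjamini-Hochberg over all tested genes. A call needed an adjusted p under 0.05 and an average log2 CPM above 1. The SE is the log2 fold change divided by the square root of F. CPM values are scaled by TMM. Tests were two-sided, and the fit was checked on simulated counts. An exact permutation test of 3 libraries against 1 could not go below p = 0.25. The methods speak of biological triplicates, and no label names separate cultures, so p-values measure the spread between these libraries, which may be technical. No pair of replicates agreed within sampling noise. Same-numbered YAP5SA libraries of A431 and HaCaT cells deviated together (r = 0.406, 0.162 and 0.175). In no other pair of groups was every r over 0.1. A431 YAP5SA replicate 2 with HaCaT replicate 3 had r = 0.349, and A431 replicate 3 with HaCaT replicate 2 had r = 0.126. Replicate 1 of either line with another number of the other line lay between -0.412 and -0.173. These values set replicate 1 apart but do not pair replicates 2 and 3 by number, and no label pairs them.

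The 10 members, the pathway lists and the words searched were chosen with earlier results of these data known. Members are named in every comparison. Of each pathway list up to 3 called genes of largest log2 fold change were named, only in comparisons with a control, where they were also followed through the alternatives. FURIN and SNAI2 over both lines were named beyond that rule to complete some small counts, after their values were seen. The induced targets called in HaCaT cells with YAP5SA were not all named. For that comparison CDKN2B, MYC, ITGAV, ITGB6, ITGB8 and LTBP1 were also given beyond the rule, after their values were seen. They show genes that did not move with the rest of their list, and were not followed through the alternatives there. The 3 most similar genes were found for the 3 members of largest SD. Not tested for low counts were LRRC32, ENG, ACVRL1 and TDGF1. Alternatives were RLE factors, other filters and call rules, a likelihood ratio test, DESeq2 1.42.0, each line alone, both controls together, a replicate block and each treated library left out. Summing TGFB2 with TGFB2-OT1 and setting each arm against its own control were added after seeing the data. A library's depth makes 3 counts worth 0.0641 to 0.166 CPM. Figures were drawn with matplotlib 3.10.9.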

Additional observations from a re-analysis of the deposited data

Results flagged for a closer look

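ITGB8, the integrin beta chain that activates latent TGF-beta, was the only gene among the 10 members and the 57 other pathway genes whose siYAP effect was called different between the lines. In A431 cells it was at 105 CPM with siCTRL and at 122, 115 and 122 CPM in the siYAP libraries, so its log2 fold change was 0.19 (SE 0.21, edgeR adjusted p = 0.654). In HaCaT cells it was at 105 CPM with siCTRL and at 445, 498 and 462 CPM in the siYAP libraries, so its log2 fold change was 2.15 (SE 0.24, adjusted p = 0.000425). The effect was larger in HaCaT cells by 1.96 on the log2 scale (SE 0.30, adjusted p = 0.0321), and all 3 HaCaT siYAP libraries were above every A431 library. Over 16 alternatives the difference lay between 1.35 and 2.0, and the adjusted p between 2.83e-06 and 0.157, with 9 under 0.05. Those 9 include call rules that reuse the main fit and repeat its adjusted p. The HaCaT empty vector library held 262 CPM of ITGB8, and with both controls of each line together the difference was 1.35 (adjusted p = 0.157). Leaving out any single siYAP library gave adjusted p-values from 0.0576 to 0.0848.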

How the results depend on the processing

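Of 1828 values of the 10 members under the alternatives, 1684 kept their direction and side of the threshold or, where not called, moved by less than 1 SE, 66 lost and 26 gained a call, 5 called values turned, and 47 uncalled values moved further, 20 of which changed sign, 15 of them with both controls. Of 442 values of the named pathway genes 81 lost their call. The controls mattered most. With siCTRL and empty vector as 2 controls of a line, called members went from 1 to 0 with siYAP in A431 cells, from 2 to 1 with siYAP over both lines and from 1 to 0 with YAP5SA over both lines, where TGFB2 turned to -0.19. In HaCaT cells the count stayed at 1, but TGFBR1 (-0.84) was called in place of TGFB2 with siYAP and SMAD2 (-0.48) with YAP5SA. Under that setting PTHLH turned to -1.11 in HaCaT cells and -0.25 over both lines with siYAP, ID2 to -0.52 over both lines with siYAP, and LTBP3 to -0.31 with YAP5SA in HaCaT cells. With each arm first set against its own control, called members of YAP5SA against siYAP went from 4 to 0 in A431 cells, where TGFB2 turned to 0.79 and SKIL to 0.20, and from 7 to 1 in HaCaT cells, where TGFBR2 turned to 0.00 and SMAD3 to 0.30. That contrast has a larger error because it holds 2 single controls.

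A log2 fold change of at least 1 left 0 members with siYAP in A431 cells and over both lines, 1 and 2 for YAP5SA against siYAP in A431 and HaCaT cells, and 5 of 8 between the lines with YAP5SA. Each line fitted alone left 4 in HaCaT cells for YAP5SA against siYAP. DESeq2 called 2 with YAP5SA in HaCaT cells (TGFB2 and SMAD2). The difference of YAP5SA effects between lines went from 0 to 1 member, TGFB2, with RLE factors, no filter, over 10 counts in every library, the likelihood ratio test, DESeq2 or the pair summed. With 1 treated library left out, called members ranged from 0 to 1 with siYAP in A431 cells (0 without replicate 1 or 3), from 2 to 3 in place of 4 for YAP5SA against siYAP in A431 cells (SMAD7 lost its call each time, and SKIL without siYAP replicate 1 or 3 or YAP5SA replicate 2 or 3), from 1 to 4 with YAP5SA in HaCaT cells (4 without replicate 1, 2 without replicate 2) and from 0 to 3 for the difference of YAP5SA effects (3 and 2 without HaCaT replicates 1 and 2, 1 without A431 replicate 1). The cause of these changes was not tested. Over all groups the replicate numbers did not pair the samples (18 pairs, r from -0.074 to 0.406, 6 over 0.1). With a replicate block the number of called members was 1, 1, 0 and 1 in the siYAP and YAP5SA comparisons of A431 and HaCaT cells, 2 and 1 over both lines, 4 and 7 for YAP5SA against siYAP, 9 and 8 between lines and 0 for both differences, as without it. The ACVR2A call with siYAP in A431 cells and that of TGIF2 with siYAP in HaCaT cells were lost (adjusted p = 0.0578 and 0.055). The block changed no call of a member. Of the members only TGFB3, at 9 to 79 estimated counts a library, lay under the level required for a call.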
